A study of Drosophila melanogaster with 6 samples.

Results

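Cells of the early Drosophila embryo are held together and given an apical and a basal side by a small set of proteins, and the transcripts of 10 genes that encode them are described here in embryos from brakeless germline clones and from control germline clones. The genes were chosen by name: shg, arm, alpha-Cat and p120ctn of the cadherin-catenin complex, baz, par-6 and aPKC of the Par complex, and crb, sdt and Patj of the Crumbs complex. A probe set counted for a gene when the platform annotation gave it that symbol and no other. This found 15 probe sets for 9 of the 10 genes, among 18769 probe sets tested. Of these genes 7 had 1 probe set each, aPKC had 2 and sdt had 6. No probe set carried the symbol arm alone, so arm, the beta-catenin of the fly, was not analysed here. By RefSeq's gene records shg, p120ctn and aPKC lie on 2R, the chromosome arm on which the clones were made, alpha-Cat and Patj on 3L, crb on 3R, and baz, par-6 and sdt on the X.

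Adherens junctions join epithelial cells through E-cadherin, whose cytoplasmic tail binds beta-catenin and p120-catenin, and beta-catenin binds alpha-catenin, which connects the complex to actin. In the fly embryo these junctions form as the blastoderm becomes cellular, at positions marked by Bazooka, while aPKC with Par-6 and Crumbs with Stardust and Patj define the apical membrane. Eggs are known to receive much of this machinery from the mother, whereas crb is known mainly as a zygotic gene of the ectoderm.

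RNA was hybridized to 1-colour Affymetrix arrays, 3 for each group, described by the labels as biological replicates. Mothers of the brakeless group were FRT2R G13 bks278/FRT2R G13 ovoD1, and the fathers carried FRT2R G13 bks278 over CyO. Control mothers were FRT2R G13/FRT2R G13 ovoD1, with fathers that carried FRT2R G13. Both groups therefore shared the FRT2R G13 site and eggs from germline clones, since ovoD1 blocks eggs from germ cells that keep it. A brakeless pool mixed embryos with and without a paternal copy of the gene. Any other difference on the 2R arm that carries bks278 cannot be told apart from the loss of brakeless. Each pool of whole dechorionated embryos was laid over 2 h at 25 °C and aged for 2 h more, which gave an age of 2 to 4 h. In such bulk RNA, fewer cells of a type and less RNA per cell cannot be told apart.

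The arrays differed among themselves, and control replicate 3 stood apart. Its mean correlation with the others was 0.964, against 0.979 to 0.986 for the other 5. The brightest of 3 probe sets of the mutated gene sbb read 5.33, 4.45 and 4.61 in brakeless embryos, against 6.01, 6.71 and 6.06 in control embryos, which did not overlap (limma adjusted p = 0.320). Of all probe sets 10.1% had groups that did not overlap. The other sbb probe sets, 1624001_at and 1626352_at, overlapped between the groups and were not lower, with brakeless minus control differences of 0.08 and 0.11. The 9 measured blastoderm genes averaged 7.30 to 8.21 across the arrays, on the log2 scale of the deposited values. None of them was called, but 2 had an unadjusted limma p under 0.05 (4.78% of all probe sets) and groups that did not overlap. These were Sry-alpha and nullo, with brakeless minus control differences of -1.03 (limma adjusted p = 0.114) and -0.63 (limma adjusted p = 0.998). Eggshell genes, of which 9 were measured, averaged 3.72 to 4.02, close to the median of all probe sets (3.67). All levels below are log2 values normalized with the robust multi-array average (RMA), every difference is brakeless minus control, and intervals are 95% intervals of the limma fit. A level of one probe set cannot be set against that of another.

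Loss of maternal Brakeless went with no called difference in any of the 15 probe sets. Limma called 0 of them at an adjusted p under 0.05, where 26 of all 18769 probe sets (0.139%) were called. At an unadjusted p under 0.05 it also found 0 of them, beside 4.78% of all probe sets. The groups overlapped in each of the 15, against 10.1% of all probe sets whose groups did not. Over the 9 genes, taking the brightest probe set of each, 6 differences were positive and 3 negative, with a median of 0.17, beside a median of -0.007 over all 11982 genes. Without control replicate 3 the fit still called 0 of the 15 (0.176% of all probe sets) and 0 had an unadjusted p under 0.05 (5.55% of all). The balance then turned to 1 positive and 8 negative, with a median of -0.06, beside 0.02 over all genes. The intervals differ widely between genes, and for alpha-Cat, p120ctn, par-6, baz and the brightest probe set of sdt they leave room for a difference of over 2-fold in either direction when all arrays are used.

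**Figure D1:**
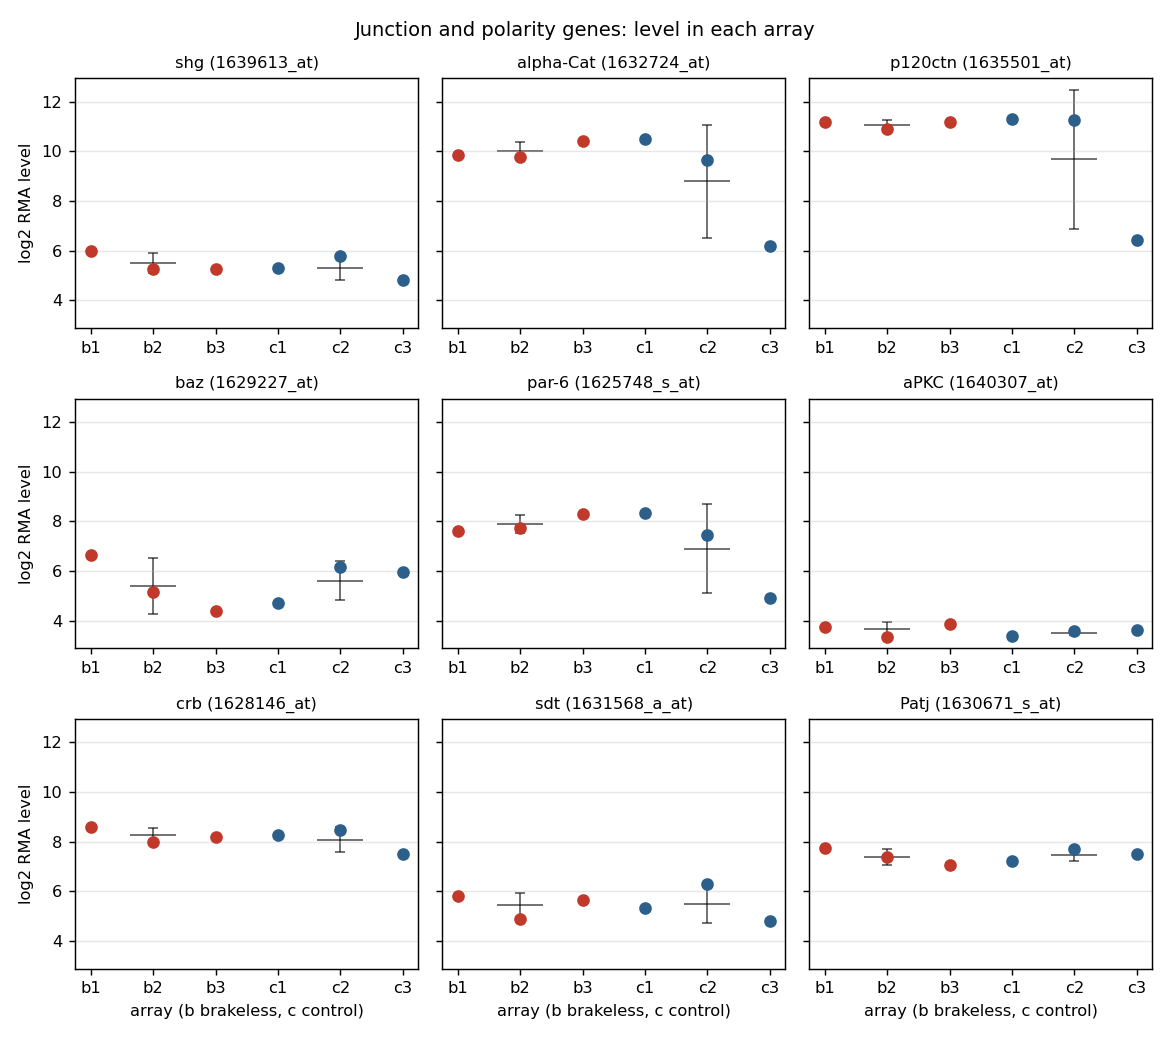
Log2 RMA level (vertical axis) of the brightest probe set of each of the 9 measured genes in the 6 arrays, with red points for brakeless replicates 1 to 3 (b1 to b3) and blue points for control replicates 1 to 3 (c1 to c3). Black dashes and bars give group mean and SD (n = 3 each); c3 lies far below all other arrays for alpha-Cat, p120ctn and par-6, and the groups overlap in every panel.

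Of the cadherin-catenin genes, p120ctn and alpha-Cat read far lower in control replicate 3 than in any other array. The probe set of p120ctn (1635501_at), which encodes the catenin that binds the membrane-near part of the cadherin tail, read 11.17, 10.88 and 11.17 in the brakeless arrays. In the control arrays it read 11.30, 11.27 and 6.43. Except for control replicate 3 all arrays lay within 0.42 of each other, and that array lay 4.45 below the lowest of them. The other 5 arrays averaged 26.6-fold higher than control replicate 3, a comparison with 1 array that has no test. The difference between the groups was 1.41 (SE 1.32, interval -1.82 to 4.64, limma adjusted p = 0.998), and the control SD was 2.81 against 0.17 in brakeless embryos. Without control replicate 3 the difference was -0.21 (SE 0.14, interval -0.56 to 0.13, limma adjusted p = 0.989).

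For alpha-Cat (1632724_at), the actin-linking catenin, the brakeless arrays read 9.87, 9.76 and 10.42. The control arrays read 10.49, 9.67 and 6.20. Control replicate 3 was again the low one, 3.46 below the nearest array and 14.3-fold below the mean of the other 5. The group means were 10.02 ± 0.35 for brakeless and 8.79 ± 2.28 for control (SD, n = 3 each), which gave a difference of 1.23 (SE 1.08, interval -1.42 to 3.88, limma adjusted p = 0.998). With control replicate 3 left out it was -0.06 (SE 0.32, interval -0.86 to 0.74, limma adjusted p = 0.999).

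E-cadherin, the homophilic adhesion receptor encoded by shg (1639613_at), read 5.97, 5.28 and 5.28 in brakeless embryos, against 5.29, 5.79 and 4.83 in control embryos. Control replicate 3 was lowest here too, but only 0.44 below the nearest array, and brakeless replicate 1 was highest. The difference was 0.21 (SE 0.31, interval -0.54 to 0.95, limma adjusted p = 0.998), and -0.03 (interval -0.74 to 0.68) without control replicate 3. The interval of shg thus covered less than that of its catenin partners, whose control arrays ranged over several log2 units.

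In the Par complex the genes followed different arrays. Par-6, the PDZ adaptor that binds aPKC and Cdc42, is represented by 1 probe set (1625748_s_at), and its suffix marks probes that match several transcripts. It read 7.63, 7.73 and 8.29 in brakeless embryos, against 8.34, 7.45 and 4.91 in control embryos. Control replicate 3 was 2.55 below the nearest array and 7.90-fold below the mean of the other 5, while those 5 spanned 0.88. The difference was 0.98 (SE 0.86, interval -1.11 to 3.08, limma adjusted p = 0.998), and -0.01 (SE 0.33, interval -0.85 to 0.82) without control replicate 3.

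Bazooka, the Par-3 scaffold that positions the early junctions, varied most among the arrays other than control replicate 3. Its gene baz (1629227_at) read 6.63, 5.16 and 4.39 in brakeless embryos, against 4.70, 6.17 and 5.97 in control embryos. The high arrays were brakeless replicate 1 and control replicates 2 and 3, and the low ones were brakeless replicate 3 and control replicate 1. The spread within brakeless embryos (SD 1.14) was larger than the difference between the groups, -0.22 (SE 0.66, interval -1.84 to 1.39, limma adjusted p = 0.998). Without control replicate 3 the difference of baz was -0.04, with a wider interval (-1.96 to 1.87).

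Both probe sets of aPKC, the kinase of the complex, were dim, with a mean signal at the 48th and 30th percentile of all probe sets. The brighter (1640307_at) read 3.76, 3.35 and 3.89 in brakeless embryos, against 3.39, 3.58 and 3.61 in control embryos, a difference of 0.14 (interval -0.27 to 0.55). The dimmer (1627948_at) read 3.46, 2.52 and 3.25 against 3.30, 3.50 and 2.54, a difference of -0.04 (interval -0.88 to 0.80). Neither was shown to be above background, where RMA compresses differences, so a change in aPKC could be hidden.

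**Figure D2:**
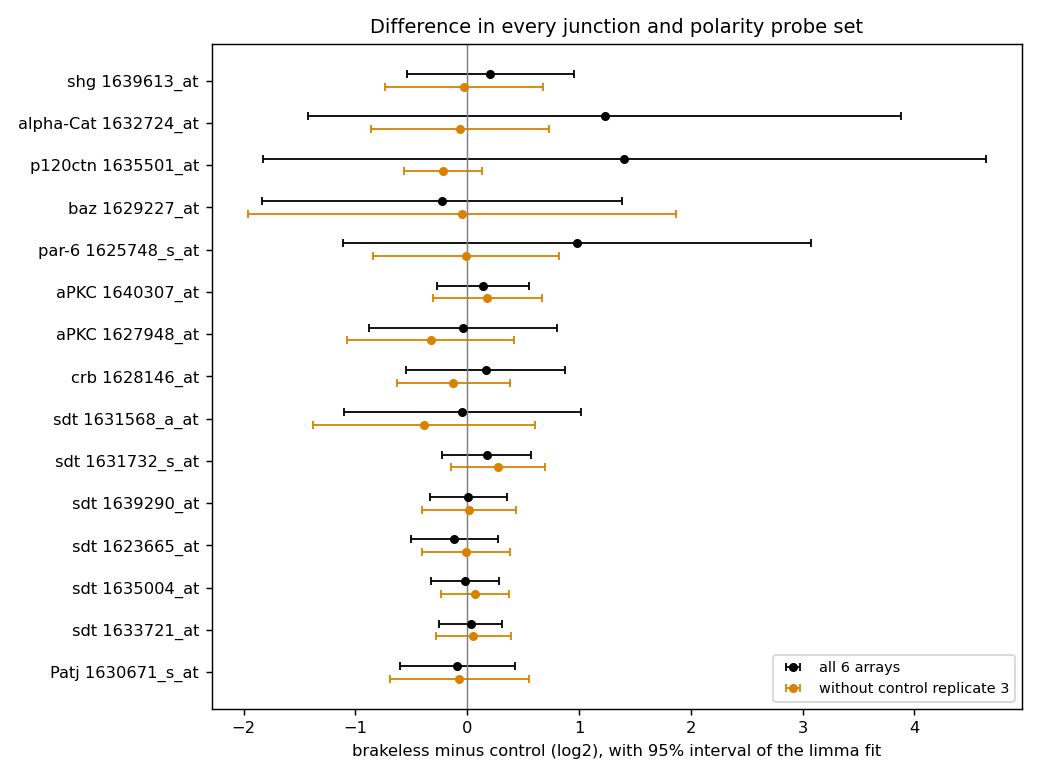
Brakeless minus control difference (log2, horizontal axis) of each of the 15 probe sets with its 95% interval, from all 6 arrays in black and without control replicate 3 in orange. Every interval crosses 0; leaving out that array moves p120ctn from 1.41 to -0.21, alpha-Cat from 1.23 to -0.06 and par-6 from 0.98 to -0.01.

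In the Crumbs complex, crb and Patj ranged over 1.08 and 0.66 across the 6 arrays and the brightest probe set of sdt over 1.504. Crumbs, the transmembrane determinant of the apical side, is encoded by crb (1628146_at), which read 8.58, 8.003 and 8.18 in brakeless embryos, against 8.28, 8.47 and 7.51 in control embryos. Control replicate 3 was lowest, 0.50 below the nearest array. The means were 8.25 ± 0.30 and 8.09 ± 0.51 (SD, n = 3 each), a difference of 0.17 (SE 0.29, interval -0.55 to 0.88, limma adjusted p = 0.998). Without control replicate 3 it was -0.12 (SE 0.20, interval -0.63 to 0.38).

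Patj, the multi-PDZ scaffold of the complex, gave the narrowest range among the genes other than aPKC, 0.66 over all 6 arrays. Its probe set (1630671_s_at) read 7.74, 7.37 and 7.08 in brakeless embryos, against 7.23, 7.70 and 7.52 in control embryos. Control replicate 3 lay inside the range of the other arrays, unlike for alpha-Cat, p120ctn and par-6. The difference was -0.09 (SE 0.21, interval -0.60 to 0.43, limma adjusted p = 0.998), so its interval excluded a 2-fold difference in either direction.

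Stardust, the scaffold that binds the tail of Crumbs, was covered by 6 probe sets of sdt, and they did not follow one pattern. The brightest (1631568_a_at) read 5.81, 4.89 and 5.64 in brakeless embryos, against 5.35, 6.31 and 4.80 in control embryos. Control replicate 2 was highest, and control replicate 3 was 0.08 below brakeless replicate 2. Its difference was -0.04 (SE 0.43, interval -1.10 to 1.02), and -0.38 (interval -1.38 to 0.61) without control replicate 3. On 1631732_s_at the order was almost turned, with 4.47, 4.87 and 4.71 against 4.54, 4.28 and 4.71, so that control replicate 2 was lowest. That probe set had a difference of 0.17 (interval -0.22 to 0.57), and 0.27 (interval -0.15 to 0.69) without control replicate 3.

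The other 4 probe sets of sdt were 1639290_at, 1623665_at, 1635004_at and 1633721_at, with means from 2.64 to 4.18 in either group. Their differences ran from -0.11 for 1623665_at to 0.03 for 1633721_at. The widest of them, 1623665_at, ranged over 0.54 across the 6 arrays. Where these probe sets lie in the sdt transcripts was not analysed here, so the differing patterns are not assigned to isoforms.

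How far control replicate 3 stood out was described across all genes. Of 11982 genes, taking the brightest probe set of each, 7.80% lay over 1 log2 unit below the mean of the other 5 arrays in control replicate 3, 3.06% over 2 and 1.04% over 3. Among the 9 junction and polarity genes 3 lay over 2 below (alpha-Cat, p120ctn and par-6), and 2 of them over 3. It was the lowest of the 6 arrays in 6 of the 9 genes, beside 19.9% of all genes. Dim genes cannot be much lower, which limits the share over all genes. Of the other members crb was at -0.80 and Patj at 0.10. For p120ctn 14 genes (0.117%) had a lower value in this measure, for alpha-Cat 44 and for par-6 129. These counts describe 1 array, and they were made after its values were seen.

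Other features of control replicate 3 stand beside these values. Cleared maternal transcripts, of which 3 of 8 were measured (smg, bcd and twe), averaged 8.98 in it and 10.10 to 10.87 in the other arrays. Of these bcd was the least apart, at 10.17 beside 10.23 to 11.34. Blastoderm genes averaged 7.41 in it and 7.30 to 8.21 in the others, and neuron genes 3.81 and 3.80 to 4.32. These averages mix genes that went different ways. Control replicate 3 was lowest in 3 of 9 blastoderm genes (sc, eve and ftz), while Sry-alpha was highest there, at 10.84 beside 9.44 to 10.55. It was lowest in 1 of 5 neuron genes, elav, at 4.22 beside 5.23 to 6.82, while nSyb was highest there, at 4.28 beside 3.75 to 4.23. Trachea, cuticle and hemocyte genes averaged 3.85 in control replicate 3 and 4.02 to 4.25 in the others, and eggshell genes 4.02 and 3.72 to 3.92. Of the 6 trachea, cuticle and hemocyte genes measured, control replicate 3 was lowest in 2. These were srp, at 4.80 beside 6.48 to 7.23, and Pxn, at 3.93 beside 3.96 to 4.56, so that average mostly reflects srp. Pole cell genes, of which 4 of 7 were measured, averaged 9.14 in it and 9.13 to 10.26 in the others. Muscle genes of older embryos, with 5 of 9 measured, averaged 4.75 in it. They averaged 6.24 and 6.81 in the other control arrays, and 3.63, 5.17 and 6.28 in brakeless replicates 1 to 3. The difference between the 3′ and the 5′ actin control probe sets was 1.42 in it and 1.29 to 1.82 in the others. That of GAPDH was 1.04 in it and 1.07 to 1.24 in the others, and the 3′ actin level was 9.61 in it and 10.08 to 10.63 in the others. Their part in the low values of p120ctn, alpha-Cat and par-6 was not tested.

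**Figure D3:**
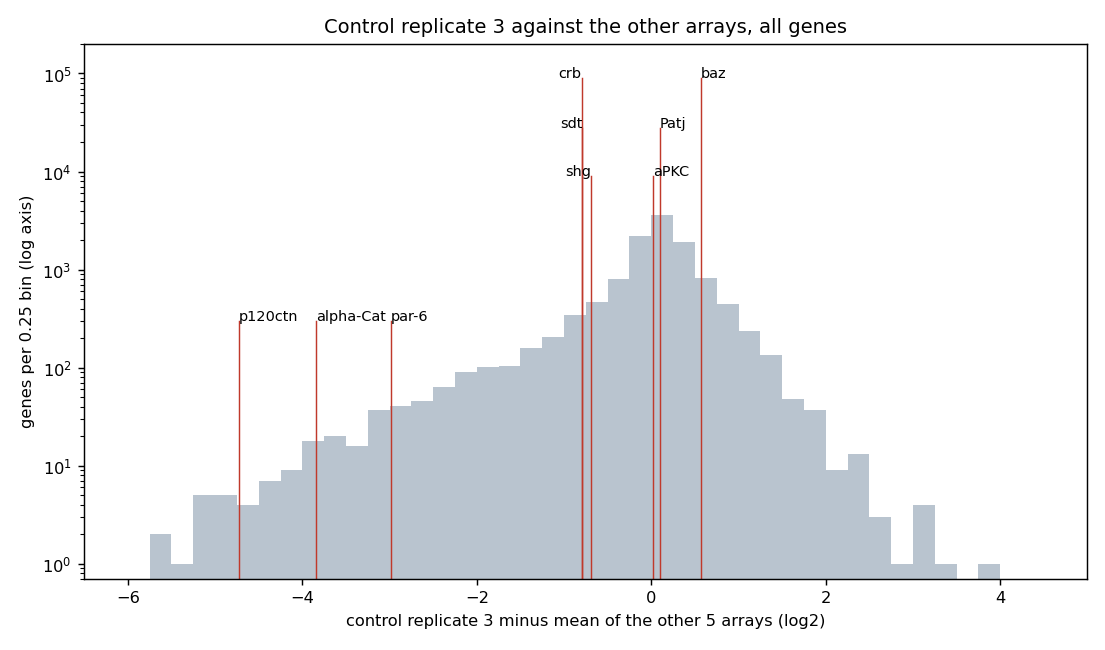
Number of genes (vertical log axis, bins of 0.25) by the value of control replicate 3 minus the mean of the other 5 arrays (log2, horizontal axis), for 11982 genes, with red lines at the 9 junction and polarity genes. p120ctn (-4.73), alpha-Cat (-3.84) and par-6 (-2.98) lie in the lower tail, and aPKC (0.02), Patj (0.10) and baz (0.57) near or above 0.

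Among the other 5 arrays the genes formed contrasting profiles that crossed the genotypes. In shg, baz, crb, Patj and the brightest probe set of sdt, the highest brakeless array was replicate 1 and the highest control array was replicate 2. That was 5 of the 8 junction and polarity genes over the 60th percentile of signal, beside 22.4% of all genes over that percentile. In alpha-Cat and par-6 the highest were brakeless replicate 3 and control replicate 1. That was 2 of the 8, near the 19.4% seen among all such genes. Both shares took the highest of all 3 control arrays, with control replicate 3 included. A gene highest in that array therefore counted in neither, and shares over the other 5 arrays alone were not counted. These arrangements were chosen after the values were seen and have no test.

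The agreement of alpha-Cat and par-6 was close. Relative to its own mean over the 5 arrays, alpha-Cat deviated by -0.17, -0.28 and 0.38 in brakeless replicates 1 to 3, and by 0.45 and -0.38 in control replicates 1 and 2. Par-6 deviated by -0.26, -0.16 and 0.40 and by 0.45 and -0.43. The root mean square difference between the profiles was 0.072, the smallest of all pairs among the 9 genes over these arrays. The profile of baz ran the other way, with 1.22, -0.25 and -1.02 in brakeless replicates 1 to 3, and -0.71 and 0.76 in control replicates 1 and 2.

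Arrays of different genotype could thus be closer to each other than arrays of one genotype. Over the 9 genes the root mean square difference was 0.23 between brakeless replicate 3 and control replicate 1, and 0.26 between brakeless replicate 1 and control replicate 2. Within the groups it was 0.52 to 0.87 among arrays other than control replicate 3, and pairs with that array gave 2.15 to 2.51. In that array 3 of the 9 genes (alpha-Cat, p120ctn and par-6) lay over 2 log2 units below the mean of the others. Its pairs gave 0.999 to 1.23 over all probe sets above the 60th percentile. Over all probe sets above the 60th percentile the closest pair was again brakeless replicate 3 and control replicate 1 (0.45), whereas brakeless replicate 1 and control replicate 2 were 0.65 apart, farther than brakeless replicates 1 and 2 (0.53). Muscle genes averaged 6.28 and 6.24 in the first pair, but 3.63 and 6.81 in the second. Whether muscle gene levels bear on these likenesses was not tested, and muscle-forming embryos were not shown to be in the pools.

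**Figure D4:**
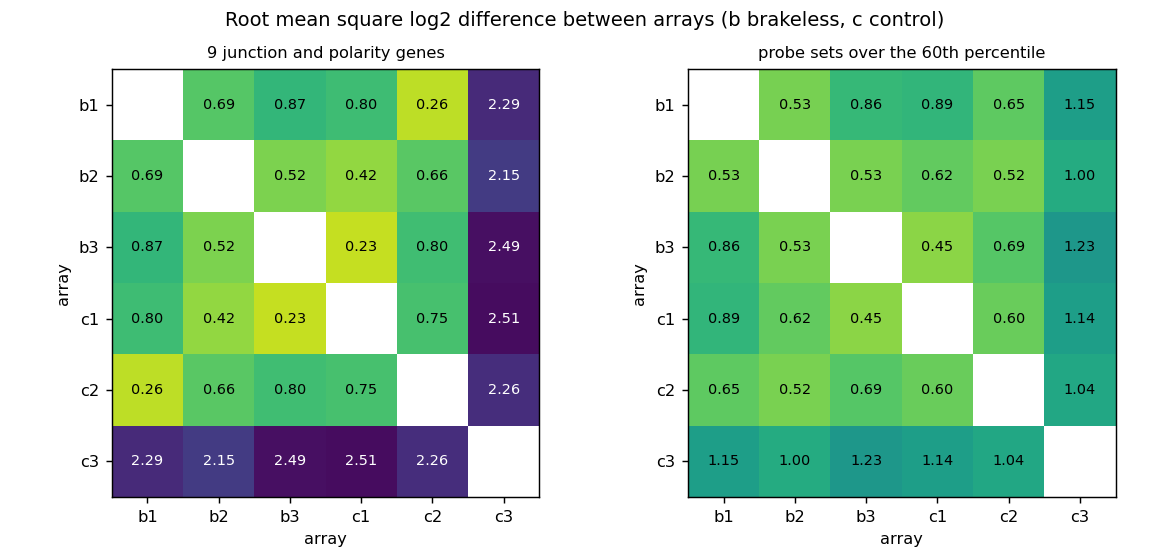
Root mean square log2 difference between each pair of arrays (b brakeless, c control; replicates 1 to 3), over the 9 junction and polarity genes on the left and over all probe sets above the 60th percentile of signal on the right. On the left the smallest values join b3 with c1 (0.23) and b1 with c2 (0.26), and every pair with c3 is at 2.15 or more.

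Genes outside the complexes with the most similar array profiles were looked up for shg, baz and crb, as the smallest root mean square difference of deviations over the 6 arrays among 6275 genes above the 60th percentile. For shg these were CG7083 (0.071), CG10803 (0.073) and Pp1alpha-96A (0.075). For crb they were Snx27 (0.074), Rox8 (0.075) and RN-tre (0.080). The wider-ranging baz was nearest to Hers (0.146), Cftr (0.152) and pcx (0.154). Between the members themselves shg and crb were the most alike over the 6 arrays (0.135).

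The wider pathway was read from 4 lists: junction partners, polarity partners, other cadherins and a list labelled cadherin switch regulators (sna, twi, wor and esg). Nothing here shows that wor or esg acts in that switch. The lists held 47 genes, of which 37 were measured. On the brightest probe set of each, limma called 0 of the 37, with 0 at an unadjusted p under 0.05. Without control replicate 3 it also called 0, and 1 had an unadjusted p under 0.05: wor, a Snail family gene, at -0.84 (interval -1.64 to -0.04, limma adjusted p = 0.883), named after its value was seen. The median difference was -0.001 for 10 junction partners, 0.23 for 12 polarity partners, 0.17 for 11 other cadherins and -0.06 for sna, twi, wor and esg. Without control replicate 3 these medians were -0.03, -0.07, -0.07 and -0.44. For the last of these, wor and esg differed by -0.84 and -0.62, and sna and twi by -0.26 and -0.12. Rho1, zip, Cdc42 and ft had no probe set of that 1 symbol and were not analysed here.

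Control replicate 3 lay over 1 log2 unit below the mean of the other 5 arrays in 7 of 12 polarity partners, as it did for alpha-Cat, p120ctn and par-6. The same held for 3 of 10 junction partners, 4 of 11 other cadherins and 2 of 4 in the list with sna (wor and esg), beside 7.80% of all genes. That share includes dim genes, which cannot be much lower, and no share over brighter genes alone was counted. The basolateral regulator l(2)gl, which opposes aPKC, read 7.01, 6.43 and 7.43 in brakeless embryos, against 7.85, 7.13 and 2.77 in control embryos. Its partner dlg1, a membrane-associated guanylate kinase, has 4 probe sets, of which the brightest (1624021_a_at) read 7.79, 6.98 and 7.65 against 7.27, 7.53 and 4.85. The differences were 1.04 (interval -2.17 to 4.26) for l(2)gl and 0.92 (interval -0.86 to 2.70) for that probe set of dlg1, and -0.53 and 0.07 without control replicate 3. Another probe set of dlg1 (1627882_at) did not share the low reading, with 5.41, 5.04 and 5.46 against 6.44, 5.91 and 5.16. Its difference was -0.54 (interval -1.35 to 0.28), and -0.88 (interval -1.43 to -0.32, limma adjusted p = 0.531) without control replicate 3. The third member of that module, scrib, did not share the pattern on its brightest probe set (1629115_s_at), with 6.77, 5.50 and 5.35 against 5.77, 6.09 and 5.50. On the dimmer 1633904_at control replicate 3 was lowest, at 3.03 beside 3.43 to 3.64. On 1639402_a_at the difference without control replicate 3 was 0.43 (interval 0.0002 to 0.86, limma adjusted p = 0.895). These dimmer scrib probe sets were picked after their values were seen. Yurt, which restrains Crumbs, is encoded by yrt, and control replicate 3 read 6.08 where the other arrays read at least 8.16.

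Among junction partners the nectin-like adhesion molecule gene ed read 4.04 in control replicate 3 and at least 6.26 elsewhere. The actin linker gene cno read 7.38 there and 7.60 to 8.57 elsewhere, and the ZO-1 relative pyd read 8.53 and 9.43 to 9.92. The differences between the groups were 0.88 (interval -1.002 to 2.76) for ed, 0.37 (interval -0.32 to 1.06) for cno and 0.36 (interval -0.55 to 1.27) for pyd. Values of junction partners are those of the brightest probe set, and cno, pyd and Myo10A have others that are not given here. In the opposite direction, Vinc, jub, Abl and Myo10A were over 1 log2 unit above the mean of the other arrays in control replicate 3, beside 4.07% of all genes, and they are named after their values were seen. The array profile of Vinc resembled that of baz, with 8.81, 7.81 and 6.56 in brakeless embryos, against 6.83, 8.30 and 8.71 in control embryos.

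For the remaining partners fixed for naming, every interval crossed 0. The kinase gene par-1, which excludes Bazooka from lateral membranes, had a difference of 0.30 (interval -0.15 to 0.75) on the brightest of its probe sets. For Moe, which links membrane to actin, it was 0.46 (interval -0.64 to 1.56). N-cadherin, known to replace E-cadherin in the mesoderm, is encoded by CadN, whose probe set was dim at 3.14 to 3.87 (difference 0.05, interval -0.57 to 0.66). The E-cadherin repressor gene sna differed by 0.03 (interval -0.79 to 0.85) and twi, which activates sna, by -0.14 (interval -1.06 to 0.78). None passed the test (limma adjusted p = 0.998 for each).

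**Figure D5:**
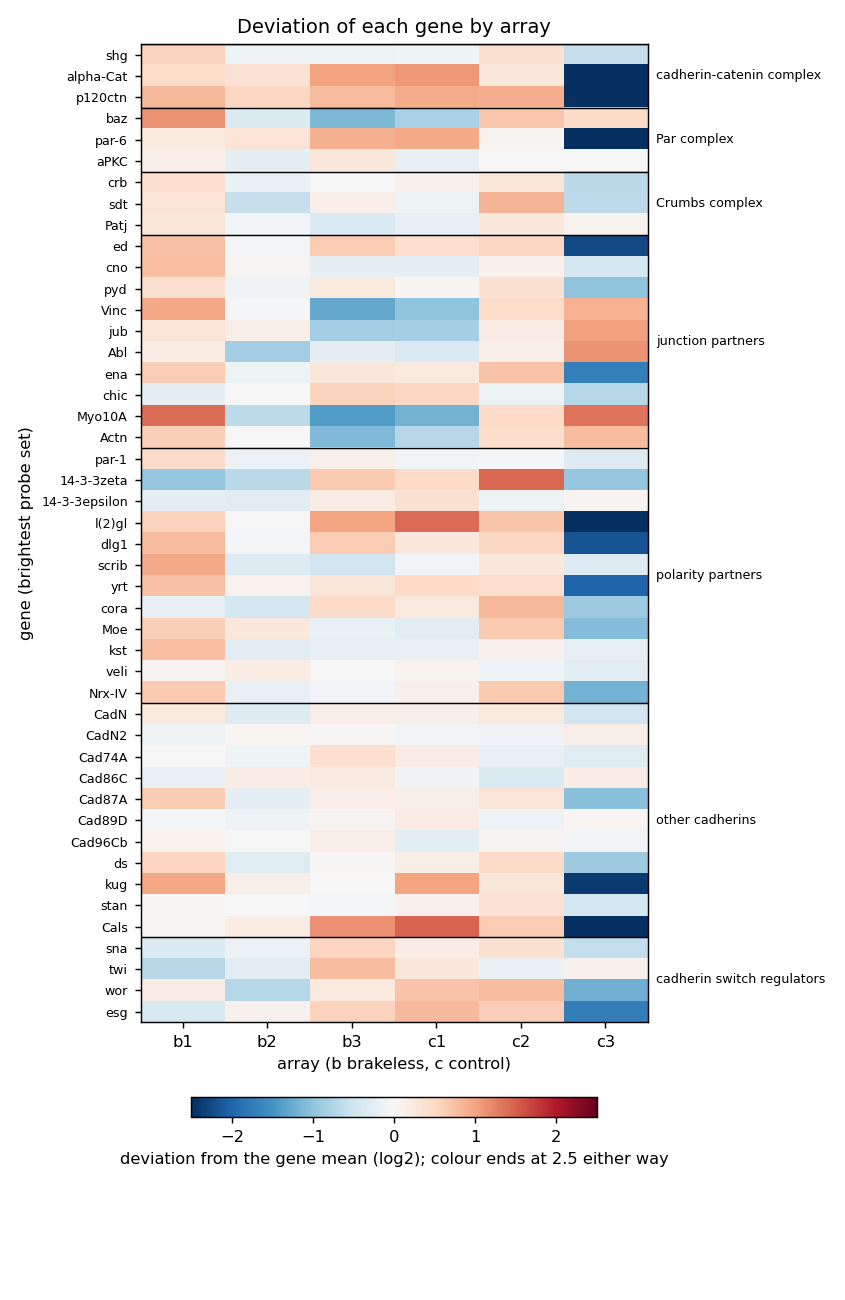
Deviation of each gene's brightest probe set from its mean over the 6 arrays (log2, colour), for the 9 junction and polarity genes and 37 related genes (rows) in brakeless (b) and control (c) replicates 1 to 3 (columns). Control replicate 3 is dark blue for genes that include alpha-Cat, p120ctn, par-6, ed, l(2)gl, dlg1 and yrt, and red for Vinc, jub, Abl and Myo10A.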

How the data were processed

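Expression was measured on 6 arrays from pools of whole embryos. The deposited values are log2 levels per probe set, normalized across the arrays with RMA by the authors, per the submitters' processing notes, with settings not given in the sources used here. Their log2 scale is inferred from the range of the values. RMA makes array distributions alike and so hides differences in total RNA. Of 18952 probe sets, 183 Affymetrix controls were left out of the tests. Names came from the platform annotation (13647 probe sets with 1 symbol, 402 with several, 4720 with none), and all 9 measured members matched RefSeq (Release 6 plus ISO1 MT) by gene number with the same symbol. Arrays have no read depth: their number sets the precision.

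The test was limma 3.58.1 under R 4.3.3 (lmFit and eBayes on 6 arrays without covariate), two-sided, with Benjamini-Hochberg adjustment over all 18769 probe sets and a threshold of 0.05. The fit was also run on simulated data with known changes, drawn as independent normal values. No outlying array was simulated, so that run does not bear on control replicate 3. Counts of genes used each gene's brightest probe set. The text names every member probe set, a fixed set of related genes and any related gene past the threshold; other genes were named after their values were seen. The members and lists were chosen with earlier results of these data known. The p-values set the difference between the groups against the spread among samples within them. Nothing states that the pools came from separate crosses, so that spread may not hold the variation between crosses. Alternatives were trend and robust moderation, array weights, renewed quantile normalization, median centring, a filter at the 40th percentile, replicate number as block, leaving out each array and the mean of a gene's probe sets. No sequences are shown and no promoter motifs were searched, because none of the tables used here holds them. Figures were drawn with matplotlib 3.10.9.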

Additional observations from a re-analysis of the deposited data

How the results depend on the processing

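Under all 12 alternatives fitted across probe sets, limma called 0 of the 15 junction and polarity probe sets (12 of them under the filter at the 40th percentile) and 0 of the related genes, and 0 of the 15 had an unadjusted p under 0.05. The smallest limma adjusted p of a member was 0.701, with array weights. The count over all probe sets, 26, was 46 with trend and robust, 74 with array weights and 0 with the replicate block (678 at an unadjusted p under 0.05), and ran from 0 to 33 with an array left out. With brakeless replicate 1 or 2 or control replicate 2 left out it was 0 (662, 532 and 1427 probe sets had an unadjusted p under 0.05), and brakeless replicate 3 and control replicate 1 left 6 and 8 when they were omitted; the cause was not tested. Same-numbered arrays did not deviate together (correlations of deviations of -0.398, -0.232 and -0.319), so the replicate block rests on a shared number only; it changed no member's call.

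Array weights, which were 0.38 for control replicate 3, gave 0.30 for alpha-Cat, 0.41 for p120ctn, 0.25 for par-6 and -0.43 for aPKC 1627948_at, against 1.23, 1.41, 0.98 and -0.04 with equal weights. Signs of small differences turned. Array weights gave -0.087 for crb, and -0.065, 0.0017 and 0.030 for sdt probe sets 1639290_at, 1623665_at and 1635004_at; renewed quantile normalization gave 0.053 for sdt 1631568_a_at and centring 0.0071 for 1635004_at. With each array left out in turn, differences ran from -0.029 to 0.45 for shg, -0.065 to 2.08 for alpha-Cat, -0.21 to 2.22 for p120ctn, -0.84 to 0.28 for baz, -0.013 to 1.70 for par-6, -0.33 to 0.24 for aPKC 1627948_at, -0.12 to 0.36 for crb and -0.26 to 0.070 for Patj. For sdt they ran from -0.38 to 0.37 on 1631568_a_at, -0.095 to 0.084 on 1639290_at, -0.11 to 0.069 on 1635004_at and -0.052 to 0.095 on 1633721_at. The negative ends for alpha-Cat, p120ctn and par-6 are those without control replicate 3. The median over the 9 genes ran from -0.065 to 0.37. Low signal may limit aPKC (48th and 30th percentile) and the sdt probe sets below the brightest, which lay from the 61st to the 8th percentile. No background level was measured, so none of these was shown to be above or near it.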
